A study of Mus musculus with 9 samples.

Results

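The IL-6 cytokine family was followed through 10 genes in cultured mouse articular chondrocytes, the cells of joint cartilage. They were taken by name from 55471 genes in the files and comprised 4 cytokines (Il6, Lif, Il11 and Clcf1), 4 receptor chains (Il6ra, Il6st, Lifr and Osmr), the signal transducer Stat3 and the inhibitor Socs3. All 10 had enough reads to be tested. Chondrocytes from wild-type mice of postnatal day 5 were infected with an adenovirus, and 3 cultures were sequenced in each of 3 groups. The Control group had received Ad-Control, an adenovirus without OSCAR, according to the study's methods. The Ad-OSCAR group overexpressed OSCAR, an immunoglobulin-like receptor that binds collagen. The Ad-OSCAR + 5-ASA group received the same OSCAR virus and then 5-aminosalicylic acid, an anti-inflammatory drug used in ulcerative colitis. The labels give 3 days of culture, infection for 2 h at a multiplicity of infection (MOI) of 400 and 36 h before the drug, whereas the methods give 2 days of culture, another MOI and 24 h with or without 10 µM 5-ASA. Plates in all groups were coated with COLpep, a collagen peptide that binds OSCAR, and IL-1β was not added, according to the methods. No group received 5-ASA without OSCAR. Nothing says whether the cultures of a group came from separate mice, so p-values measure the spread between these cultures, which may be technical.

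Cytokines of the IL-6 family signal through a shared receptor chain, gp130, encoded by Il6st. A cytokine first meets a chain of its own, such as the IL-6 receptor or the LIF receptor, and gp130 then activates JAK kinases, which phosphorylate STAT3. STAT3 enters the nucleus and switches on target genes, among them Socs3, whose product binds gp130 and shuts the signal off. In cartilage, IL-6, LIF and oncostatin M are known for promoting matrix breakdown.

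Oscar itself, the overexpressed gene, had 3 to 4 estimated counts per culture in Control, 173445 to 187278 in Ad-OSCAR and 80766 to 94199 in Ad-OSCAR + 5-ASA cultures. The drug-treated cultures therefore also carried less Oscar RNA, by a log2 fold change of -0.97 (SE 0.06, edgeR adjusted p = 1.76e-08), and the effect of 5-ASA on the 10 genes cannot be told apart from that of this difference. The 9 chondrocyte markers checked were present in Control, but their summed level fell from 14994 to 16956 TPM in Control to 1040 to 1193 TPM in Ad-OSCAR cultures, with all 9 called lower, beside 32.2% of all genes tested. TPM (transcripts scaled to a common total of the library) is a level divided by transcript length. In each OSCAR group 1 of the 9 stayed under 1 TPM, Matn3, at 0.10 to 0.22 TPM in Ad-OSCAR. The Control sum was mostly Col2a1 (mean of 12071 TPM). By gene, the falls in Ad-OSCAR ran from 2.13-fold (Hapln1) to 177-fold (Matn3). The 7 macrophage and other leukocyte markers summed to 19.6 to 24.3 TPM in Control, 48.1 to 49.9 TPM in Ad-OSCAR and 36.3 to 39.3 TPM in Ad-OSCAR + 5-ASA cultures, with 4 of 7 under 1 TPM in each group. Of 4 tested, 3 were called higher in Ad-OSCAR and none lower, beside 32.7% and 32.2% of all genes. They were Cd68 (4.18-fold), Cd14 (2.09-fold) and Lyz2 (1.35-fold). With 5-ASA 2 of the 4 were called lower, Cd68 and Cd14, and none higher, beside 7.38% and 10.4% of all genes. The 7 fibroblast or synovial markers summed to 4924 to 5077, 4782 to 5320 and 5323 to 5473 TPM, but this sum hides opposite changes, since in Ad-OSCAR 3 of the 7 were called higher, such as Prg4 (lubricin, 3.64-fold), and 4 lower, such as Thy1 (5.78-fold lower). In the same order of groups, the 4 osteoclast markers summed to 23.9 to 25.1, 22.0 to 22.5 and 19.8 to 21.1 TPM, with 2 higher and 1 lower of 3 tested in Ad-OSCAR, and the 4 endothelial markers to at most 1.37 TPM. The 1 endothelial marker tested, Tek, was called higher in Ad-OSCAR (3.67-fold) and lower with 5-ASA (edgeR adjusted p = 0.0298). The part of these cell types in the results below was not tested, and in these bulk cultures fewer cells of a type and less RNA per cell cannot be told apart. Libraries held 19733448 to 28192740 counts.

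The 3 cytokine genes with large changes and Socs3 are shown by sequence in front of a RefSeq start site, because the results turn on the RNA levels of these genes. The sequences are from RefSeq on GRCm38.p6, written in the direction of the gene. Those of Il6, Lif and Il11 run up to the last base before the exon annotated there, and for Socs3 the 30 bases around a match are given, from 164 to 135 bases before the start. The starts used for Il11 and Socs3 are not the outermost starts in GENCODE, so both stretches lie inside the gene spans given below, in introns of longer GENCODE transcripts. RefSeq has another Il11 start, at 4782857, whose window holds no AP-1 match. Capitals mark matches, on either strand, to TGANTCA (the AP-1 motif) or a loose NF-kB-like motif (GGG and CC, or GG and CCC on the other strand, with any 5 bases between), and for Socs3 the match to TTCNNNGAA (the STAT motif).
Il6, chr5:30012864-30013113, plus strand: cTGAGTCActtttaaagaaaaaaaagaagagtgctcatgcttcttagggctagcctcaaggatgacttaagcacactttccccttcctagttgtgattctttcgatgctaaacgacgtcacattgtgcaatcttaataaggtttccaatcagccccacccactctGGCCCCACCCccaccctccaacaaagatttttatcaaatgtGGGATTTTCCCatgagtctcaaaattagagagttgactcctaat
Lif, chr11:4257318-4257556, plus strand: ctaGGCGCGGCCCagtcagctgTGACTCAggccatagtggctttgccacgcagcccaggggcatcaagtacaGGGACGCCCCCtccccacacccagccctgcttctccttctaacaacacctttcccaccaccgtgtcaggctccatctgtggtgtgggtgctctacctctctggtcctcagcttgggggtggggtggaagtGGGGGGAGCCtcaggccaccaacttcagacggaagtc
Il11, chr7:4778142-4778391, minus strand: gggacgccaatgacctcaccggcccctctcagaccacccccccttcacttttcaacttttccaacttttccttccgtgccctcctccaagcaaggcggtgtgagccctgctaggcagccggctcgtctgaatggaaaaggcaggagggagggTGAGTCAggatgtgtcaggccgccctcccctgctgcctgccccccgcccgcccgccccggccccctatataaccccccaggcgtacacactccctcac
Socs3, chr11:117969501-117969530, minus strand: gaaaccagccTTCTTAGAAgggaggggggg

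RefSeq windows from 250 bases before to 50 bases after the start were found for 9 of the 10 genes. These genes had 11 windows, since Il11 and Lifr have 2 starts each. The AP-1 letters occurred in 4 of the 11 windows, 1 each of Il6, Lif, Il11 and Osmr, and in 7.81% of all 32851 windows of that length. In Il6 the match lay 249 to 243 bases before the RefSeq start, in Lif 228 to 222 and in the Il11 window shown 98 to 92 bases before it, while that of Osmr lay within the transcribed part. The STAT letters occurred in 1 of the 11 windows, that of Socs3, 154 to 146 bases before the start, and in 8.30% of all windows. The NF-kB-like letters were too common to set genes apart, with 9 of 11 windows and 50.8% of all windows. A match describes the letters only and is neither a shown binding site nor a cause of the values below.

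OSCAR overexpression was accompanied by large increases of 3 of the 4 cytokine RNAs. The receptors changed less than these, Lifr the most among them, and Stat3 and Socs3 moved little. Lif rose 57.2-fold, Il11 27.3-fold and Il6 20.01-fold, and Clcf1 rose 1.34-fold. Among the receptor chains Lifr fell to 0.651 and Il6st to 0.890 of the Control level and Osmr rose 1.22-fold. Il6ra, Stat3 and Socs3 did not pass the test. In all, 7 of the 10 genes were called at an adjusted p under 0.05 (quasi-likelihood test of edgeR, Benjamini-Hochberg), 5 higher and 2 lower. Since 65.0% of all 15362 genes tested were called in this comparison, 32.7% higher and 32.2% lower, that count is close to the background, and it is the size of the cytokine changes that differs. Only 4.57% of all genes rose with a log2 fold change above 1.5, which Il6, Lif and Il11 did. In CPM, 8 of the 10 genes had no overlap between the groups, beside 69.0% of all genes. The median log2 fold change of the 10 genes was 0.17, beside 0.02 for all genes.

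**Figure D1:**
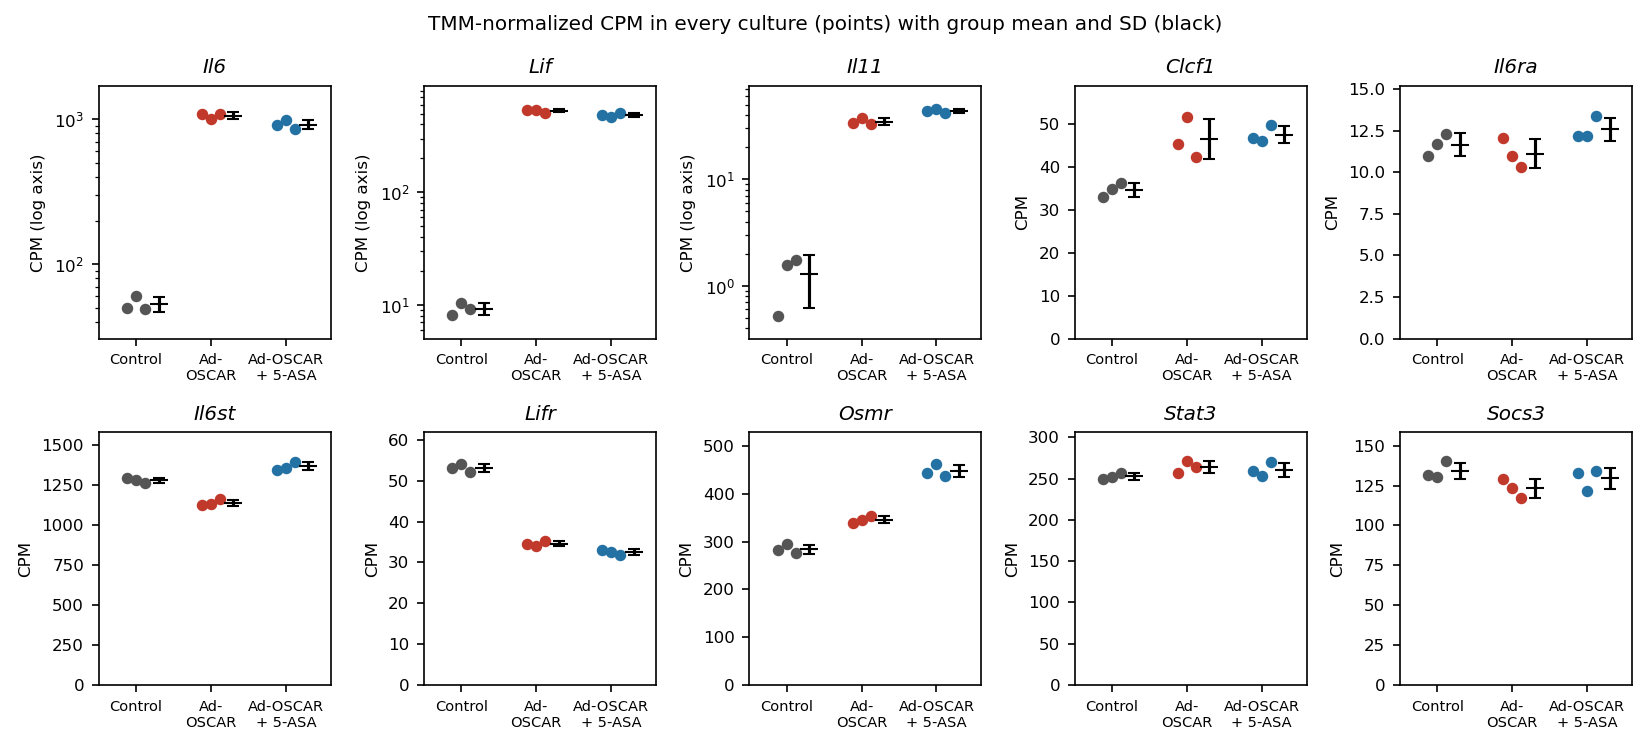
Normalised counts scaled to library size (CPM, TMM scaling) of the 10 genes in every culture, 1 panel per gene, with the group mean and SD in black (n = 3 cultures) and log axes for Il6, Lif and Il11. The cytokines Il6, Lif and Il11 sit far above Control in both OSCAR groups, Lifr sits below Control, and the Stat3 panels overlap in all 3 groups.

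Il6 encodes interleukin-6, the namesake of the family and an inducer of acute-phase proteins. It is on chromosome 5 (30013114 to 30019981, plus strand, GRCm38). Its level was 71.9, 94.3 and 76.0 TPM in the 3 Control cultures, 1802, 1591 and 1816 TPM in Ad-OSCAR, and 1370, 1482 and 1322 TPM with 5-ASA. The groups were separate, with the lowest Ad-OSCAR culture far above the highest Control culture and all drug-treated cultures in between. Against Control, the log2 fold change was 4.32 (SE 0.08, edgeR adjusted p = 2.45e-18) in Ad-OSCAR and 4.12 (SE 0.08, adjusted p = 4.83e-18) in Ad-OSCAR + 5-ASA.

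Lif encodes leukemia inhibitory factor, which signals through the LIF receptor and gp130 and supports stem cell self-renewal (chromosome 11, 4257557 to 4272514, plus strand). It was low in Control, at 3.96, 5.30 and 4.86 TPM. It reached 262, 252 and 246 TPM in Ad-OSCAR and 214, 208 and 226 TPM with 5-ASA. Every Ad-OSCAR culture was above every drug-treated culture, and both groups were far above Control. The log2 fold change of 5.84 in Ad-OSCAR (SE 0.07, edgeR adjusted p = 1.53e-20) was the largest of the 10 genes, and that of the drug-treated cultures against Control was 5.71 (SE 0.07).

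Il11 encodes interleukin-11, a family member linked to fibrosis and bone remodeling (chromosome 7, 4772373 to 4782859, minus strand). The Control cultures had 0.68, 1.47 and 1.93 TPM, resting on 11, 38 and 33 counts. Ad-OSCAR cultures had 32.5, 35.4 and 31.7 TPM, and drug-treated cultures 39.1, 41.0 and 39.1 TPM. Here the drug-treated group was the highest, and no culture overlapped with another group. The log2 fold change against Control was 4.77 in Ad-OSCAR (SE 0.16, edgeR adjusted p = 8.28e-15) and 5.10 with 5-ASA (SE 0.15, adjusted p = 2.56e-15).

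Clcf1 encodes cardiotrophin-like cytokine factor 1, which engages the CNTF receptor (chromosome 19, 4214238 to 4223490, plus strand). Its levels were 26.8, 27.6 and 29.4 TPM in Control, 38.6, 43.1 and 35.7 TPM in Ad-OSCAR, and 36.8, 35.7 and 40.4 TPM with 5-ASA. The OSCAR groups overlapped each other and lay above Control. In Ad-OSCAR it rose by a log2 fold change of 0.42 (SE 0.07, edgeR adjusted p = 2.14e-05). Clcf1 overlaps another protein-coding gene, AC109138.7, on the same strand and the miRNA gene Gm26115 on the other, so its reads may be shared.

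Il6st encodes gp130, the chain that all these cytokines share (chromosome 13, 112464070 to 112510086, plus strand). The Control cultures had 296, 299 and 285 TPM, Ad-OSCAR cultures 257, 241 and 267 TPM, and drug-treated cultures 272, 280 and 296 TPM. Ad-OSCAR cultures were the lowest, while drug-treated and Control cultures overlapped on this scale. The normalised counts gave a log2 fold change of -0.17 in Ad-OSCAR (SE 0.04, edgeR adjusted p = 0.000713). That call was lost when libraries were scaled by total count alone (-0.04, adjusted p = 0.351), a setting chosen after seeing the data that moved the median of all genes to 0.15.

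Lifr encodes the LIF receptor, which pairs with gp130 for LIF and several other family members (chromosome 15, 7090614 to 7197489, plus strand). It had 53.2, 54.0 and 52.1 CPM in Control, 34.6, 34.0 and 35.2 CPM in Ad-OSCAR, and 33.2, 32.7 and 31.7 CPM with 5-ASA. The Control cultures were all higher, and the drug-treated cultures were all slightly below the Ad-OSCAR cultures. Its log2 fold change was -0.62 in Ad-OSCAR (SE 0.05, edgeR adjusted p = 1.39e-09) and -0.71 with 5-ASA against Control (SE 0.05, adjusted p = 2.65e-10). Its TPM spread widely in Control, from 11.5 to 19.2, where the abundance-weighted transcript length that RSEM reported ran from 4843 to 7613 bases, and stood at 7.26 to 8.25 in Ad-OSCAR. On mean TPM Lifr was 1.94-fold lower in Ad-OSCAR, beside 1.54-fold in the normalised counts.

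Osmr encodes the oncostatin M receptor chain, which also joins gp130 (chromosome 15, 6813577 to 6874969, minus strand). Its levels were 101, 105 and 97.1 TPM in Control, 126, 121 and 125 TPM in Ad-OSCAR, and 147, 151 and 148 TPM with 5-ASA. The 3 groups formed a ladder without overlap, Control lowest and drug-treated highest. Its log2 fold change was 0.28 in Ad-OSCAR (SE 0.04, edgeR adjusted p = 1.52e-05) and 0.65 with 5-ASA against Control (SE 0.04, adjusted p = 2.39e-10). Its ligand Osm, made mainly by leukocytes, was listed at 0 in all 9 cultures.

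Il6ra encodes the chain that binds IL-6 itself and can also act in a soluble form (chromosome 3, 89864059 to 89913196, minus strand). It was the lowest of the receptor genes, at 3.26, 3.56 and 3.96 TPM in Control, 3.64, 3.28 and 3.40 TPM in Ad-OSCAR, and 3.49, 3.69 and 4.30 TPM with 5-ASA. All groups overlapped on this scale. In Ad-OSCAR the log2 fold change was -0.07, with a 95% interval from -0.25 to 0.12 (edgeR adjusted p = 0.523), and it turned to 0.06 with scaling by total count. In CPM, the drug-treated cultures (12.1 to 13.4) lay just above the Ad-OSCAR cultures (10.3 to 12.1). An antisense gene, Gm42809, overlaps Il6ra, and whether strand was used in the counting is not given in the sources used here.

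Stat3, the transcription factor that the receptors activate by phosphorylation (chromosome 11, 100885098 to 100939540, minus strand), had 106, 108 and 107 TPM in Control, 111, 122 and 120 TPM in Ad-OSCAR, and 108, 105 and 114 TPM with 5-ASA. The log2 fold change in Ad-OSCAR was 0.07 with a 95% interval from -0.03 to 0.16 (edgeR adjusted p = 0.196), and with scaling by total count it was 0.19 and passed the test (adjusted p = 0.00078). RNA levels say nothing of the phosphorylation of STAT3. Stat3 overlaps Stat5a on the opposite strand.

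Socs3, the feedback inhibitor of gp130 signaling (chromosome 11, 117966079 to 117970047, minus strand), had 93.0, 92.8 and 98.2 TPM in Control, 93.1, 86.4 and 85.2 TPM in Ad-OSCAR, and 88.0, 80.5 and 92.4 TPM with 5-ASA. On this scale Ad-OSCAR cultures overlapped with both other groups and the drug-treated cultures all lay below Control, while in CPM the Ad-OSCAR cultures (117 to 129) were just below Control (130 to 140). The log2 fold change in Ad-OSCAR was -0.12, with a 95% interval from -0.23 to -0.01 and an edgeR adjusted p of 0.0531. DESeq2 put it just past the threshold (-0.13, adjusted p = 0.0316), as did edgeR with RLE, another scaling of the libraries (-0.13, adjusted p = 0.0371). Leaving out Control culture 2 (-0.14), Ad-OSCAR culture 1 (-0.15) or drug-treated culture 2 (-0.12) did the same. Scaling by total count turned it to 0.01. Il6, Lif and Il11 rose many-fold in the same cultures.

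The order of levels, compared on TPM, changed accordingly. In Control, gp130 led with a mean of 293 TPM, followed by Stat3 at 107 TPM and by Osmr, Socs3 and Il6 at 101, 94.6 and 80.7 TPM. Neighbours among the last 3 overlapped in range, as did Lif and Il6ra near the bottom, and Il11 was lowest at 1.36 TPM. In Ad-OSCAR cultures Il6 came first at 1736 TPM (SD 126), ahead of Il6st at 255 and Lif at 253 TPM, which did not differ beyond their spread, and neither did Osmr and Stat3. Il6ra was lowest at 3.44 TPM. With 5-ASA the order was the same from Il6 (1391 TPM, SD 82.1) down to Socs3, with Il11 and Clcf1 overlapping below it.

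The effect of 5-ASA in OSCAR-expressing cells was small beside that of OSCAR and did not go in a single direction. Osmr rose 1.29-fold, Il11 1.26-fold and Il6st 1.20-fold, Il6 fell to 0.866 of its Ad-OSCAR level, and the other 6 genes did not pass the test. These 4 of 10 genes called stand beside 17.8% of all genes tested, with 10.4% higher and 7.38% lower. In CPM, 7 of the 10 had no overlap between the groups, beside 33.8% of all genes. The median log2 fold change of the 10 genes was 0.05 and that of all genes -0.00. This comparison shares the Ad-OSCAR cultures with the OSCAR comparison, so their values are given side by side only.

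Il6 fell by 0.21 on the log2 scale with 5-ASA (SE 0.07, edgeR adjusted p = 0.0349), with the 3 drug-treated cultures at 913, 990 and 855 CPM and the Ad-OSCAR cultures at 1093, 1000 and 1091 CPM. The cultures did not overlap, but the nearest were close together. The call was lost with DESeq2 (adjusted p = 0.149) and without Ad-OSCAR culture 1 (0.118) or 3 (0.1) or drug-treated culture 1 (0.109) or 3 (0.149), with log2 fold changes from -0.20 to -0.16. Lif had a log2 fold change of -0.13 (SE 0.05, edgeR adjusted p = 0.0956) that passed with DESeq2 (adjusted p = 0.0326) and with scaling by total count (-0.20, adjusted p = 0.00992).

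Il11 rose with 5-ASA, by a log2 fold change of 0.33 (SE 0.09, edgeR adjusted p = 0.0108), from 33.9, 37.9 and 32.8 CPM to 43.7, 46.2 and 41.7 CPM. All drug-treated cultures were above all Ad-OSCAR cultures. Without Ad-OSCAR culture 1 or 3 the value was 0.31 (adjusted p = 0.0619) or 0.29 (adjusted p = 0.0567). Clcf1 had a log2 fold change of 0.03 with a 95% interval from -0.10 to 0.17 (adjusted p = 0.783).

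Osmr and Il6st were the receptor chains that rose with 5-ASA, by log2 fold changes of 0.37 (SE 0.04, edgeR adjusted p = 7.68e-06) and 0.26 (SE 0.04, adjusted p = 6.77e-05). Osmr went from 338, 346 and 354 CPM to 443, 462 and 438 CPM, and Il6st from 1127, 1131 and 1163 CPM to 1349, 1361 and 1397 CPM. Neither gene had overlapping cultures, and both calls were kept in all 16 alternative settings. On TPM the increases were smaller, with log2 ratios of 0.26 for Osmr and 0.15 for Il6st. Saa3 alone took 126865 to 133426 TPM in Ad-OSCAR and 143082 to 151559 TPM with 5-ASA, and its part in the difference between the scales was not tested. Lifr had a log2 fold change of -0.09 with a 95% interval from -0.19 to 0.01 (adjusted p = 0.223) and Il6ra one of 0.18 with an interval from -0.00 to 0.35 (adjusted p = 0.166).

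Stat3 and Socs3 had log2 fold changes of -0.02 (95% interval from -0.11 to 0.07, edgeR adjusted p = 0.835) and 0.07 (from -0.04 to 0.18, adjusted p = 0.411) with 5-ASA. Against Control, the drug-treated cultures had 7 of 10 genes called, 6 higher and 1 lower, beside 63.2% of all genes, 31.4% higher and 31.8% lower, and 7 of 10 without overlap, beside 66.6% of all genes. Il6st was among the 6 with a log2 fold change of 0.10 (SE 0.04, adjusted p = 0.0322), in place of the decrease seen without the drug, and this small difference did not hold without a filter on low counts (adjusted p = 0.0775) or in 5 of the 9 fits that left out a culture. Its direction also turned with the scale, with a log2 ratio to Control of -0.05 on mean TPM and 0.01 on CPM per kilobase. Clcf1 stood at 0.45 (SE 0.07, adjusted p = 1e-05) in that comparison.

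**Figure D2:**
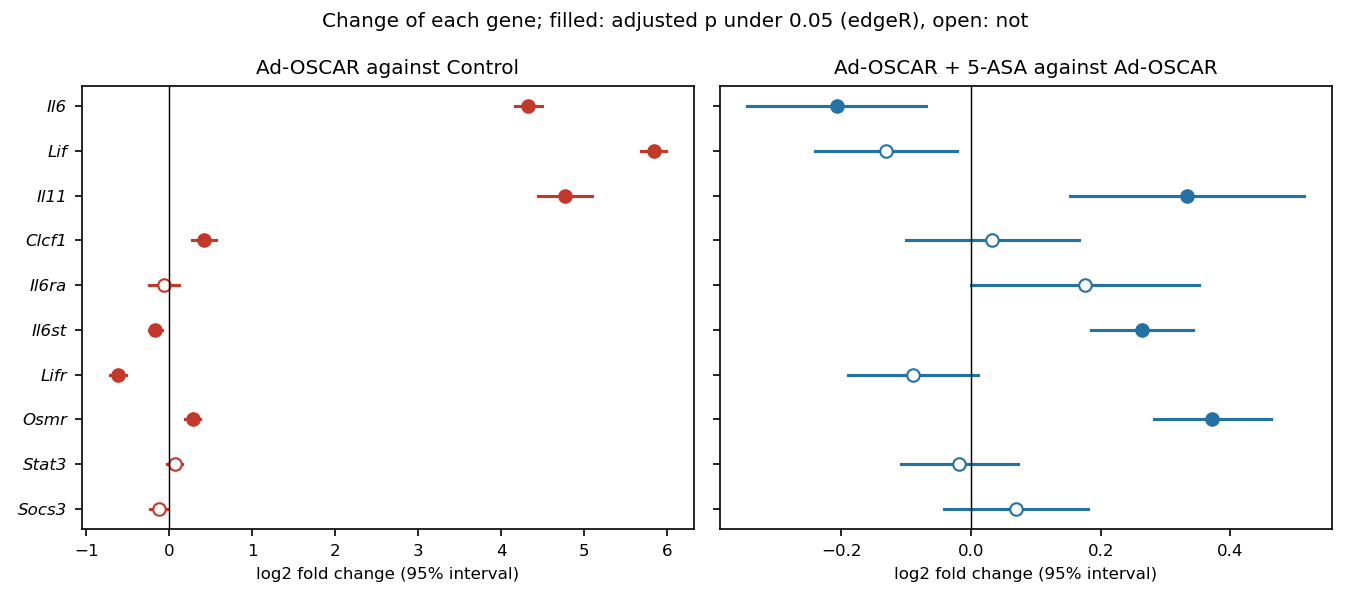
Log2 fold change of the 10 genes (points) with the 95% interval (bars) in the OSCAR comparison on the left and the 5-ASA comparison on the right, on different horizontal scales. Filled points passed an adjusted p under 0.05 with edgeR, which 7 genes did on the left and 4 on the right.

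The proportions between chains that share gp130 shifted towards Osmr. The ratio of Osmr to Lifr, taken on TPM within each culture, had a geometric mean of 6.92 in Control (range 5.45 to 8.44), 16.1 in Ad-OSCAR (15.2 to 16.7) and 21.7 with 5-ASA (21.1 to 22.0). On estimated counts, which are not divided by length, this ratio was 5.28 to 5.44 in Control, 9.77 to 10.2 in Ad-OSCAR and 13.3 to 14.2 with 5-ASA. Control thus spread less on counts, and the step to Ad-OSCAR was smaller. The Osmr to Il6st ratio was 0.344, 0.485 and 0.526, and the Lifr to Il6st ratio fell from 0.0497 to 0.0301 and 0.0243. The Il6ra to Il6st ratio of 0.0122 in Control, 0.0135 in Ad-OSCAR and 0.0135 with 5-ASA overlapped between all groups. In 12 exact two-sided permutation tests of these ratios, every comparison of groups without overlap gave p = 0.1, the smallest that 3 against 3 cultures can give (0.15 after adjustment), so none could pass a threshold of 0.05. Osmr to Il6st overlapped between Ad-OSCAR and drug-treated cultures (exact p = 0.2).

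Between cytokines, ratios added after the data were seen showed that Lif gained on Il6 in the OSCAR groups, from 0.0583 of its TPM in Control to 0.146 in Ad-OSCAR and 0.155 with 5-ASA. Il11 stood at 0.0155, 0.0191 and 0.0286 of Il6, and the drug-treated cultures were all above the Ad-OSCAR cultures (exact permutation p = 0.1, the smallest possible). The Il11 to Il6 ratio of Ad-OSCAR overlapped with that of Control (exact permutation p = 0.6), where it ranged from 0.00945 to 0.0254.

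**Figure D3:**
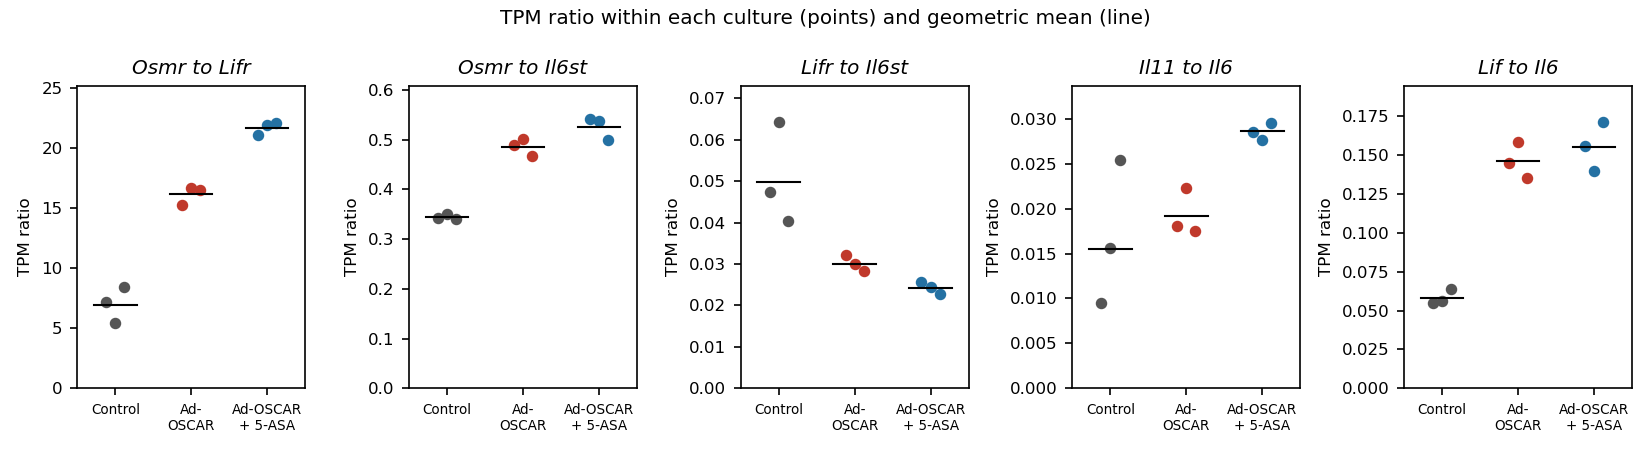
Ratio of TPM between pairs of genes within each culture (points, 3 per group) and the geometric mean (line), 1 panel per ratio with axes from 0. Osmr to Lifr rises from 6.92 in Control through 16.1 to 21.7, and the Control cultures spread widely for Lifr to Il6st and Il11 to Il6.

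The rest of the pathway was read from lists of 57 genes, of which 49 were tested. In the OSCAR comparison 39 were called, 26 higher and 13 lower, beside 65.0% of all genes called, 32.7% higher and 32.2% lower, with a median log2 fold change of 0.20. With 5-ASA 14 were called, 13 higher and 1 lower, beside 17.8% of all genes, 10.4% higher and 7.38% lower, with a median of 0.07. Of 7 other gp130 cytokines 5 had too few counts to test, and Osm, Il27 and Il31 were listed at 0. Of the 2 tested, Ctf1, cardiotrophin 1, stayed level, at means of 4.24 CPM in Control and 4.23 CPM in Ad-OSCAR (log2 fold change -0.004, SE 0.15, edgeR adjusted p = 0.985). Cntf, ciliary neurotrophic factor, was called lower in Ad-OSCAR (log2 fold change -1.65, SE 0.36, adjusted p = 0.000655), from a mean of 1.25 CPM. Of 4 other receptor chains tested, 2 were called lower in Ad-OSCAR, Il31ra (the IL-31 receptor chain, -1.15, SE 0.38, adjusted p = 0.0139) and Il11ra1. Il11ra1, the IL-11 receptor, fell in Ad-OSCAR (log2 fold change -0.42, SE 0.06, adjusted p = 1.51e-05) and rose with 5-ASA (0.32, SE 0.06, adjusted p = 0.00144), with uncertain counts because Il11ra2 is a near-identical copy.

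Among 9 kinases, STATs and adaptors, 3 rose and 4 fell in Ad-OSCAR, a count near the 65.0% of all genes called. The kinase genes Tyk2 and Jak2 rose by log2 fold changes of 0.82 and 0.25, and Grb2, an adaptor to the RAS pathway, by 0.18. Gab1, an adaptor to MAP kinase and PI3 kinase signaling, fell by 0.69 on the log2 scale, Stat5a by 0.21 and Ptpn11, the phosphatase SHP2 that docks to gp130, by 0.16. The falls of Stat5a and Ptpn11 did not pass with scaling by total count (adjusted p = 0.134 and 0.451). With 5-ASA 1 of the 9 was called, Gab1 at 0.27 (SE 0.06, edgeR adjusted p = 0.00403).

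Of 11 negative regulators tested, 7 rose and 2 fell in Ad-OSCAR, beside 32.7% and 32.2% of all genes. Cish, a relative of Socs3 that acts on STAT5 signaling, rose from 4.30 to 34.0 CPM (log2 fold change 2.99, SE 0.10, edgeR adjusted p = 1.29e-14), the largest change of this list. Ptpn2, a phosphatase that inactivates JAKs and STATs, rose by 0.81 and Socs2 by 0.65 on the log2 scale, and Pias3, an inhibitor of STAT3 binding to DNA, by 0.43. Socs1 fell by 0.72 and Ptpn1 by 0.18, but the Ptpn1 call was lost with scaling by total count (adjusted p = 0.472) and without Control culture 1 (0.0528) or 3 (0.0575) or Ad-OSCAR culture 3 (0.0675). With 5-ASA Pias3 fell by 0.28 (SE 0.05, adjusted p = 0.00061) and Ptpn2 rose by 0.17 (SE 0.05, adjusted p = 0.0361). That Ptpn2 call was lost with scaling by total count (adjusted p = 0.208), without Control culture 1 (0.0512), without any 1 of the Ad-OSCAR cultures (0.152, 0.0667 and 0.0582) and without drug-treated culture 1 (0.0817) or 2 (0.167). The proteases that shed the IL-6 receptor moved apart in Ad-OSCAR, Adam17 at 0.22 and Adam10 at -0.29, and neither passed with 5-ASA (adjusted p = 0.924 and 0.221).

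Of 21 STAT3 target genes tested, 15 rose and 3 fell in Ad-OSCAR, beside 32.7% and 32.2% of all genes, with a median log2 fold change of 0.64. With 5-ASA 10 rose and none fell, beside 10.4% and 7.38% of all genes, with a median of 0.13. With scaling by total count, 6 of all the pathway genes were called lower with 5-ASA in place of 1. The acute-phase genes Saa3, serum amyloid A3, and Hp, haptoglobin, rose by log2 fold changes of 2.02 (SE 0.04) and 1.99 (SE 0.07) in Ad-OSCAR and again by 0.26 (SE 0.04, edgeR adjusted p = 0.000231) and 0.50 (SE 0.06, adjusted p = 2.12e-05) with 5-ASA. Batf, a transcription factor of the AP-1 family, rose by 1.20 in Ad-OSCAR. Lcn2, lipocalin 2, rose by 0.69 and then by 0.44 with 5-ASA. Lbp, the lipopolysaccharide-binding protein, was at -0.24 in Ad-OSCAR (adjusted p = 0.000652, but 0.0558 with scaling by total count) and at 0.78 with 5-ASA (SE 0.05, adjusted p = 2.4e-08).

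Besides Lbp, the target genes that fell with OSCAR were Ccnd1, cyclin D1, and Myc, a transcription factor of cell growth. Ccnd1 had a log2 fold change of -1.58 (SE 0.06) and Myc one of -0.93 (SE 0.06), and 5-ASA moved them by 0.28 and 0.51, with Ccnd1 at 94.9, 31.9 and 38.7 CPM and Myc at 63.7, 33.6 and 47.5 CPM in Control, Ad-OSCAR and drug-treated cultures. The angiogenic factor Vegfa rose by 0.67 with OSCAR and by 0.29 with 5-ASA. Il4ra, the IL-4 receptor, rose by 0.64 and 0.29, Timp1, an inhibitor of matrix proteases, by 0.41 and 0.17, and Hif1a, the hypoxia factor, by 0.18 and 0.19. The 5-ASA calls of Timp1 and Hif1a were lost with scaling by total count (adjusted p = 0.111 and 0.0764), and that of Timp1 without Ad-OSCAR culture 1 (adjusted p = 0.0701). Many of these genes also answer to factors other than STAT3, so their counts are no measure of its activity.

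**Figure D4:**
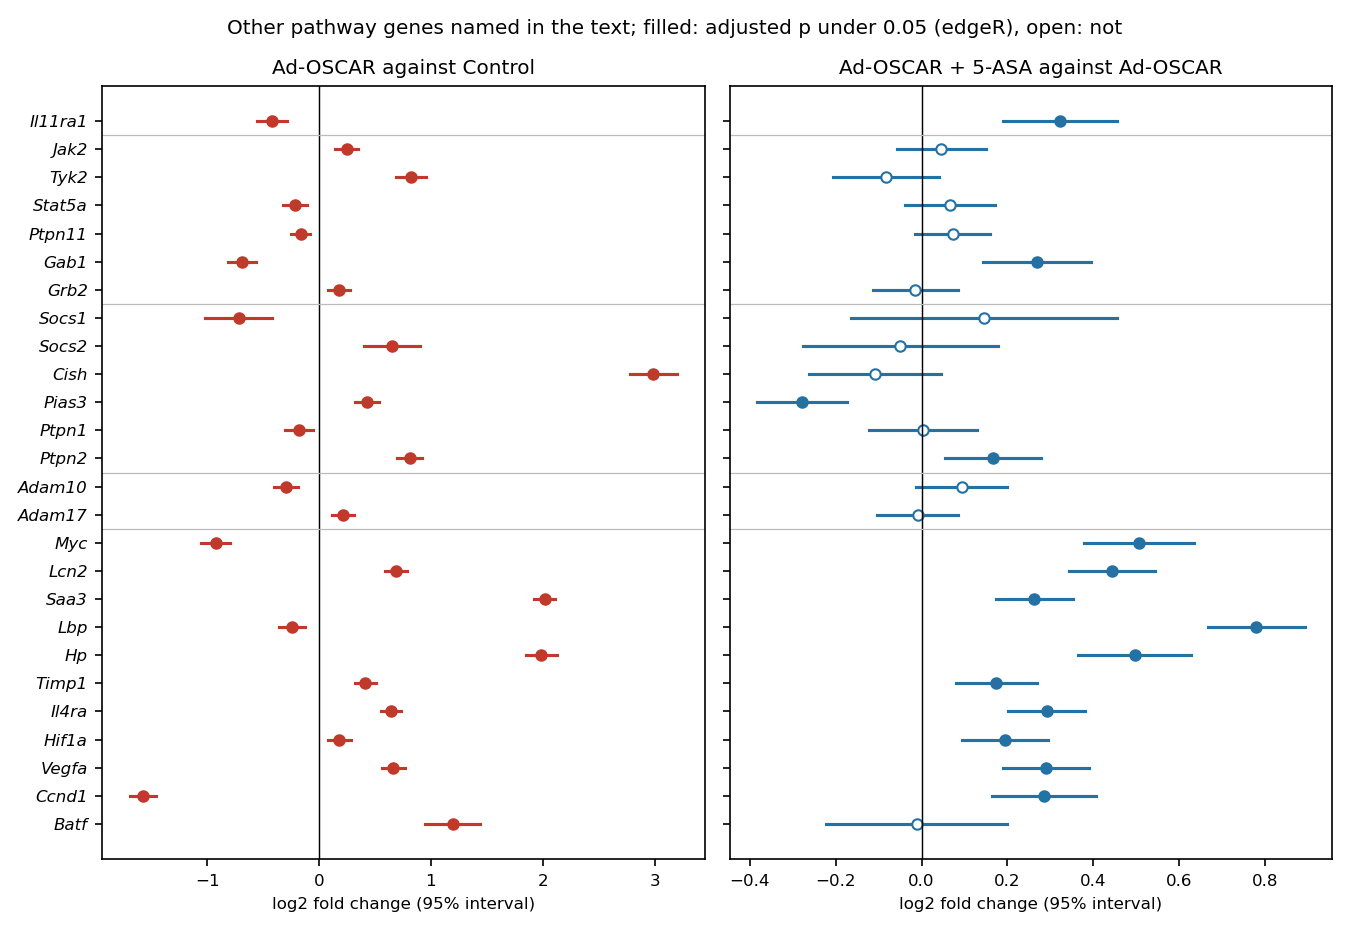
Log2 fold change (points) and 95% interval (bars) of the 26 other pathway genes named by the rule, in the OSCAR comparison on the left and the 5-ASA comparison on the right, on different horizontal scales and divided by list. Filled points passed an adjusted p under 0.05 with edgeR. Cish at 2.99 and Saa3 at 2.02 rise most on the left, and Lbp at 0.78 on the right.

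The transcript length that RSEM weighted by isoform abundance differed between groups in several genes. The largest difference was that of Lifr, from 6286 bases (SD 1389) in Control to 7756 bases (SD 406) in Ad-OSCAR, but its cultures overlapped. Those of Il11 also overlapped, at 1689 bases (SD 252) and 1949 bases. Between Ad-OSCAR and Control, 4 of the 10 genes had lengths without overlap between the groups, beside 14.5% of the 13372 genes compared (those with 10 or more counts in each culture). Il6st averaged 7369 bases (SD 69.8) in Control and 7693 bases (SD 167) in Ad-OSCAR, and Lif 3420 bases (SD 141) and 3692 bases (SD 19.4). Il6 went from 1275 bases (SD 43.7) to 1216 bases (SD 5.96) and Clcf1 from 2238 bases (SD 40.7) to 2183 bases (SD 25.2). Between Ad-OSCAR and drug-treated cultures Il6 was the 1 gene of 10 without overlap, at 1216 and 1232 bases, beside 9.44% of all genes, and between drug-treated and Control cultures there were 6 of 10, beside 15.5%. Each comparison without overlap had an exact permutation p of 0.1, the smallest that 3 against 3 cultures can give (0.273 after adjustment over 30 tests), and the others had exact p from 0.2 to 0.9, so none could pass a threshold of 0.05.

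The genes whose log2 CPM followed Il6 most closely over the 9 cultures were Grem1, a BMP antagonist (Pearson r = 0.9995), Tnfsf15, Slc25a37, Map3k20 and Plxdc2, out of 13242 genes with a mean of at least 1 CPM. Grem1 had 273, 1648 and 1485 CPM in Control, Ad-OSCAR and drug-treated cultures. For Socs3 the closest were Gpd1 (r = 0.949), Rinl, Fhl3, St6galnac6 and Zfp651. These correlations describe 9 points in 3 groups, which share their group means, and say nothing of shared control.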

How the data were processed

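RNA of 9 cultures was sequenced by the authors from stranded mRNA libraries. According to the methods and the submitters' processing notes, the reads were checked with FastQC, trimmed with BBDuk, aligned to GRCm38 with STAR 2.7.1a and quantified per gene with RSEM 1.3.1. The deposited files give the authors' estimated counts, which need not be whole and were rounded here, TPM, and transcript lengths weighted by isoform abundance. Symbols and positions are from GENCODE M21, which matched 55144 of 55471 genes.

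Counts were tested with edgeR 4.0.16 in R 4.3.3 (TMM scaling, filterByExpr by group, quasi-likelihood F test, all 9 cultures in 1 fit with group as the only factor), with Benjamini-Hochberg adjustment over 15362 genes. SE and 95% intervals came from the F statistic. The biological coefficient of variation was 5.11%. Same-group cultures differed by more than sampling noise, with chi-square per degree of freedom from 4.25 to 8.10. TPM ratios and lengths were compared by exact permutation. Alternatives were DESeq2 1.42.0, RLE scaling, other filters, fits of 2 groups alone, a block for the replicate number, each culture left out, and, added after seeing the data, scaling by total count and the cytokine ratios. The fits were tested on simulated data.

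All 10 genes are named. Of the pathway lists, the text names every gene called with 5-ASA, up to 3 genes per list and direction with the largest change in Ad-OSCAR among those called (mean of 1 CPM or more), and the 5 genes most like Il6 and Socs3. Cntf, Il31ra, Prg4, Thy1, Pias3 in Ad-OSCAR and the genes at 0 are named besides, chosen after their values were seen. The genes and lists were chosen with earlier results of these data known. Some genes of the lists are not reported here and were left out of their counts.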

Additional observations from a re-analysis of the deposited data

How the results depend on the processing

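The calls of Il6, Lif, Il11, Clcf1, Lifr and Osmr against Control kept their direction and their side of the threshold in all 16 alternatives of the Ad-OSCAR comparison. Scaling by total count, added after seeing the data, shifted the median log2 fold change of all genes from 0.02 to 0.15 in Ad-OSCAR, from -0.00 to -0.08 with 5-ASA and from 0.01 to 0.07 with 5-ASA against Control, and changed the calls over all genes from 5031 higher and 4952 lower to 6609 and 3907 in Ad-OSCAR and from 1598 and 1134 to 1057 and 2523 with 5-ASA. Under it, in Ad-OSCAR, Il6ra was at 0.061, Il6st at -0.041, Stat3 at 0.19 and Socs3 at 0.0059, with 1 of the 10 genes and 8 pathway genes called lower. With 5-ASA, Lif was at -0.20, Clcf1 at -0.038, Lifr at -0.16 and Socs3 at -0.0013, with 3 of the 10 genes and 6 pathway genes lower. Against Control, the drug-treated cultures had Stat3 at 0.10 and Socs3 at 0.0046.

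DESeq2 gave Socs3 at -0.13 in Ad-OSCAR, as did RLE scaling (-0.13), both past the threshold, and with 5-ASA DESeq2 gave Il6 at -0.20 and Lif at -0.13. Without a filter Il6st was at 0.10 in drug-treated cultures against Control, and 2 pathway genes were called lower with 5-ASA. Leaving out 1 culture at a time, Socs3 ranged from -0.15 to -0.082 in Ad-OSCAR. With 5-ASA, Il6 ranged from -0.26 to -0.16, Il11 from 0.29 to 0.39, Clcf1 from -0.032 to 0.11 and Stat3 from -0.043 to 0.0030, the genes called lower from 0 to 1 and pathway genes called lower from 1 to 3, the highest without Ad-OSCAR culture 3. Il6st against Control ranged from 0.081 to 0.11. An arm with 2 cultures then shared the spread of all groups.

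Levels as CPM per kilobase in place of TPM gave log2 ratios with 5-ASA of -0.13 for Lif, 0.36 for Il11, 0.24 for Il6st, -0.066 for Lifr, 0.36 for Osmr and -0.011 for Stat3, and against Control 0.63 for Osmr and 0.10 for Stat3. The log2 Il6ra to Il6st ratio with 5-ASA was -0.084 from counts and -0.049 to 0.039 with a culture left out, and Il11 to Il6 in Ad-OSCAR ranged from -0.056 to 0.66, the lowest without Control culture 1. The cause of these changes was not tested.

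Same-numbered cultures did not deviate together (correlations from -0.072 to 0.040). That shows no shared deviation by number, but it cannot tell whether the numbers pair cultures by mouse or preparation. With the number as a block Il6 was at 4.33 in Ad-OSCAR and -0.21 with 5-ASA, no call of the 10 genes changed, and genes called over all went from 1598 and 1134 to 1483 and 1017 with 5-ASA.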
